A study of Mus musculus with 18 samples.

Results

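The promoters of the cytosolic ribosomal protein genes were examined in an ATAC-seq study of mouse brain nuclei. In ATAC-seq the transposase Tn5 inserts adapters wherever DNA is accessible, so that the reads over a promoter measure how open its chromatin is. The members were chosen by name: every promoter window whose gene symbol was Rpl or Rps with a number, Rplp0, Rplp1, Rplp2 or Rpsa, with the S6 kinase genes left out. This gave 86 windows of 85 genes, of 26065 windows of 24166 genes in all. Only Rpl3l had a second window, and its window with the higher mean count was used. By role, 43 members encode proteins of the large subunit, 31 of the small subunit (Rpsa included), 3 form the P stalk, and 8 are paralogs of other members (Rpl3l, Rpl7l1, Rpl10l, Rpl22l1, Rpl32l, Rpl39l, Rps4l and Rps27l). Apart from that window, the rule used names and no measured value.

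A ribosomal protein is one of the proteins that, with ribosomal RNA, build the subunits of the ribosome, the machine that translates messenger RNA. Their genes lie apart on many chromosomes, are transcribed at high rates in almost every cell, and have short promoters with a pyrimidine-rich start, the TOP tract, through which mTOR signalling controls translation of the messages. In neurons, synthesis of new protein is known to be needed for lasting memory, fear memory included.

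The 18 libraries fall into 8 groups, all from C57BL/6J mice aged 2 to 3 months. Nuclei of somatostatin (SOM+) neurons, an inhibitory class, were sorted by a nuclear GFP (SOM H2B-GFP mice, wild type by label) from the central amygdala (CeA) and the cortex (prefrontal, per the protocol). There were 2 libraries each from fear-conditioned and control mice in CeA, and 2 each from fear-conditioned and control mice in cortex, with a male label on the first of each group and a female label on the second. Bulk nuclei, sorted on a DNA stain and not by cell type, came from mice that lack Erbb4 in SOM+ cells (KO), 3 libraries in CeA and 3 in cortex, all male, and from the wild-type (WT) mice of that line, 2 libraries in CeA and 2 in cortex, 1 female and 1 male in each. Each library held 50000 nuclei. WT was read from the titles, because the genotype field carries the knockout allele in every bulk library. The protocol speaks of technical replicates of the sort, so libraries of a group may share mice, and p-values then measure the spread between libraries only.

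The deposited values were read counts in windows reaching 1 kb to either side of each start site in build mm9. Promoter counts per library ran from 2648959 to 14668694, and the members took 0.517 to 0.644% of them. Of the members, 78 had windows of 2000 bases and 7 were wider, up to 3290 bases. The windows of 48 members overlapped no other gene's window, 19 overlapped only small RNA genes, mostly snoRNAs, which lie in introns of many ribosomal protein genes, and 18 overlapped another gene, as Rpl15 does with Nkiras1. Reads in an overlap cannot be given to one gene. All 85 members passed the filter on low counts in every fit. Levels below are counts per 1000000 promoter reads scaled by TMM (CPM), folds are log2 with their SE, and adjusted p is from edgeR's quasi-likelihood test with Benjamini-Hochberg adjustment over all promoters tested. Called means an adjusted p under 0.05.

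Before the results, 1 library and 1 measure need naming. The third cortex KO library differed most from its group: a chi-square of counts per degree of freedom was 14.9 against the first cortex KO library, where all other replicate pairs gave 3.32 to 8.65. The contrast of open to closed promoters also moved with the groups. The median level of 77 mitochondrial ribosomal protein promoters over that of the olfactory receptor promoters, which are closed in brain, was 20.4 ± 9.76 in CeA SOM+ fear, 21.6 ± 3.25 in CeA SOM+ control, 47.9 ± 1.84 in cortex SOM+ fear and 54.1 ± 11.5 in cortex SOM+ control (SD, n = 2 each). In the bulk groups its mean was between 10.8 and 13.5. Its part in the results below was not tested.

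The sequences at the start sites show which motifs some of these promoters carry. RefSeq promoter entries (GRCm38.p6, 250 bases before to 50 after an annotated start) matched 64 of the 85 members, with 76 entries. Below, 80 bases before to 15 after the start are printed 5′ to 3′ on the gene's strand for 8 members that carry the results to follow, at chr8:123102270-123102364 (+) for Rpl13, chr7:3703961-3704055 (+) for Rps9, chr5:115559387-115559481 (+) for Rplp0, chr16:55966195-55966289 (+) for Rpl24, chr14:18270972-18271066 (-) for Rpl15, chr17:27635230-27635324 (-) for Rps10, chr7:99483695-99483789 (-) for Rps3 and chr10:23787195-23787289 (-) for Rps12. Capitals mark matches on either strand to the searched motifs, and a TOP tract that opens exactly at the start.
Rpl13: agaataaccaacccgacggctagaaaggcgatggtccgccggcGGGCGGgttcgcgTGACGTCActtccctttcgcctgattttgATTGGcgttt
Rps9: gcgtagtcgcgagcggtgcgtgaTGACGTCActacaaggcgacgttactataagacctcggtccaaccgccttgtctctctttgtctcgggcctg
Rplp0: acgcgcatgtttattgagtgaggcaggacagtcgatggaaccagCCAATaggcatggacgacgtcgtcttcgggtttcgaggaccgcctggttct
Rpl24: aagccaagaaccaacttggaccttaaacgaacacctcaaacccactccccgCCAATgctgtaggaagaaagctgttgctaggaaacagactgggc
Rpl15: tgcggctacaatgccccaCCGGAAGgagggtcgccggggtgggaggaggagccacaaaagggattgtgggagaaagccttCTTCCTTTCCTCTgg
Rps10: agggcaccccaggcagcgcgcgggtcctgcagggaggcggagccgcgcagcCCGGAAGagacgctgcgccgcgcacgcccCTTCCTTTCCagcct
Rps3: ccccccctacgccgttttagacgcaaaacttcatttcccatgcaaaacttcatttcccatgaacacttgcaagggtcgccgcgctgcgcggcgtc
Rps12: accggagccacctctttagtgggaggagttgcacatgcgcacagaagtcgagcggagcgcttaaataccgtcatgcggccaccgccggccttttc

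Rpl13 and Rps9 both held the palindromic cAMP response element TGACGTCA, and Rpl13 also held the Sp1 motif GGGCGG and an NF-Y motif. Rplp0 and Rpl24 held the NF-Y motif CCAAT. Rpl15 and Rps10 held the ETS motif CCGGAAG and a TOP tract at the start. In the stretches of Rps3 and Rps12 these letters were not found. Over the whole 300-base entries, the ETS motif was in 35.5% of the member entries and 8.86% of all 32851 entries. A TOP tract, here a C followed by 4 pyrimidines exactly at the start, opened 18.4% of the member entries and 2.51% of all, and with a start allowed within 5 bases 42.1% and 18.3%. The Sp1 motif was in 59.2% of member entries and 35.7% of all, the YY1 motif AAGATGGC in 10.5% and 2.75%, and the cAMP response element in 6.58% and 1.79%. The NF-Y motif (28.9% and 37.4%), the TATA box TATAAA (10.5% and 13.6%), the NRF1 motif GCATGCGC (3.95% and 2.71%) and the E-box CACGTG (10.5% and 7.15%) lay nearer to all promoters or below them. A match is a description of letters and not a bound site, and matched entries cover 75.3% of the members, under the 80% that a comparison of base composition needs, so that check was void.

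The level of the members differed widely. Per kb of window and over all libraries, Rpl7 was highest at 90.9 CPM per kb, followed by Rps29 at 80.2 and Rps23 at 78.1 CPM per kb. Rpl39l, a paralog used in testis, was lowest at 1.73 CPM per kb, next to Rpl10l, a retrogene of male germ cells, at 2.11 CPM per kb, and Rpl32l and Rpl3l, the heart and skeletal muscle paralog, at 4.55 and 4.6 CPM per kb. Among the 77 members that are not paralogs, Rpl6 was lowest at 15.2 CPM per kb. The paralogs Rps27l, Rpl7l1 and Rpl22l1 did not share the low levels of the testis and muscle paralogs.

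The same 77 members lay closest together in SOM+ nuclei and furthest apart in cortex bulk nuclei. The SD of their log2 level per kb was 0.59 in CeA SOM+ fear, 0.56 in CeA SOM+ control, 0.62 in cortex SOM+ fear and 0.62 in cortex SOM+ control. It was 0.75 in CeA KO, 0.67 in CeA WT, 0.87 in cortex KO and 0.95 in cortex WT. Their median level was 40.2 CPM per kb in cortex SOM+ control and 36 in CeA SOM+ control, against 25.3 in CeA WT and 22.5 in cortex WT. Of the 77, 34 had their highest group mean in cortex SOM+ control and 36 their lowest in cortex WT. These are descriptions, with no test.

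**Figure D1:**
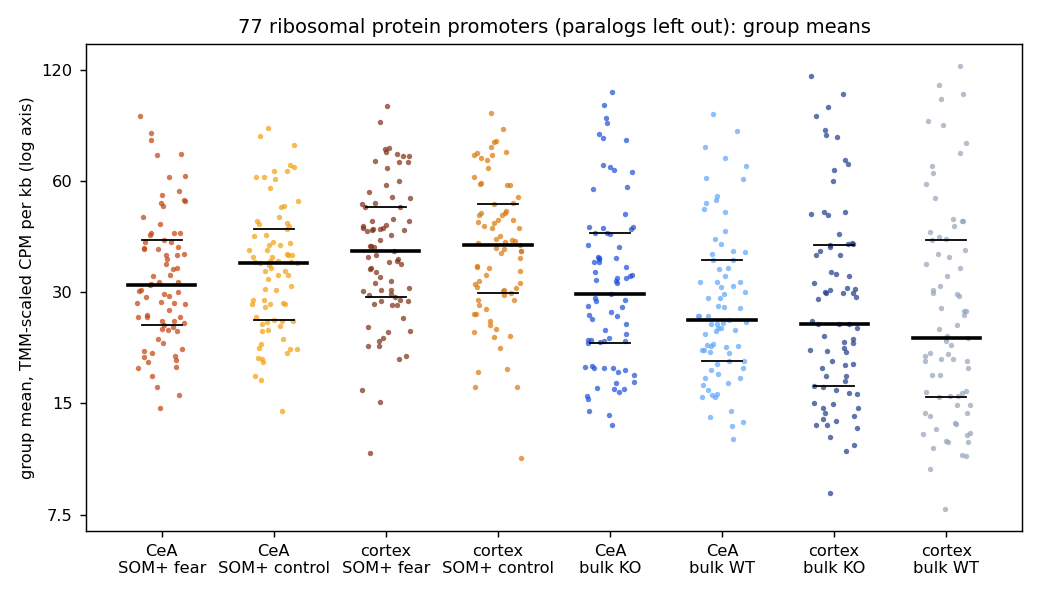
Each point is the group mean of 1 of 77 ribosomal protein promoters, in TMM-scaled CPM per kb on a log axis, with groups along the horizontal axis, a thick line at the median and thin lines at the quartiles. The points are closest together in CeA SOM+ control, with an SD of log2 level of 0.56, and furthest apart in cortex WT, with 0.95.

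SOM+ control nuclei of the CeA were first set against bulk WT nuclei of the CeA, which asks how the sorted neurons differ from the whole tissue. Of the 85 members 27 rose and 1, Rps12, fell, where 13.7% of all promoters were called higher and 9.56% lower. The members' median log2 fold was 0.38, against -0.06 over all promoters. With counts scaled to their totals 16 rose and 6 fell, and under cyclic loess 13 rose and 8 fell. Of the small subunit 14 of 31 rose, of the large subunit 10 of 43, of the P stalk 0 of 3 and of the paralogs 3 of 8. In bulk tissue, fewer cells of a type with an open promoter and less opening per cell cannot be told apart, and SOM+ and bulk libraries also differ in mouse line and gate.

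Rps9, a small subunit protein, had 51.1 and 63.6 CPM in CeA SOM+ control and 28.9 and 19.2 CPM in CeA WT, a log2 fold of 1.23 ± 0.23 (edgeR adjusted p = 0.000159). Rpl5, which carries the 5S ribosomal RNA into the large subunit, had 112 and 92.9 CPM in CeA SOM+ control against 50.3 and 45.4 CPM in CeA WT, a log2 fold of 1.09 ± 0.20 (adjusted p = 0.000134). In both of these every SOM+ library stood above every bulk one. All 27 members that rose and the 1 that fell had groups without overlap. The rule for naming members also asks for this, so the separation adds nothing to the calls. Rps28 had 50.4 and 52.5 CPM in CeA SOM+ control and 26.5 and 26.9 CPM in CeA WT, and Rpl14 had 75.1 and 69.2 CPM in CeA SOM+ control and 39.8 and 38.5 CPM in CeA WT. Again the groups were apart, with log2 folds of 0.95 ± 0.22 for Rps28 and 0.88 ± 0.20 for Rpl14 (adjusted p = 0.00143 and 0.00162). Rpsa, a small subunit protein also known as a laminin receptor, rose by 0.56 ± 0.20 (adjusted p = 0.0337). The paralogs Rps4l, Rps27l, which p53 induces, and Rpl7l1 rose by 1.05 ± 0.27, 0.74 ± 0.20 and 0.64 ± 0.22 (adjusted p = 0.00396, 0.0063 and 0.0284).

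Rps12 went the other way. It had 77 and 79.2 CPM in CeA SOM+ control and 168 and 159 CPM in CeA WT, both SOM+ libraries below both bulk libraries, with a log2 fold of -1.07 ± 0.22 (adjusted p = 0.000378). Its window also holds the snoRNA genes Snora33 and Snord100. Rps6, the protein that S6 kinases phosphorylate, averaged 123 ± 20.1 CPM in CeA SOM+ control and 122 ± 3.3 CPM in CeA WT (SD, n = 2 each) and was not called (adjusted p = 0.991). The P stalk members Rplp0, Rplp1 and Rplp2, which recruit the translation factors, had log2 folds of 0.41, 0.41 and 0.39 and adjusted p of 0.165, 0.165 and 0.155.
The call counts in CeA rest on few libraries. Without the first CeA WT library 7 members rose, without the second 14, and without the second CeA SOM+ control library 12. Rpl5, Rps9, Rpl14 and Rps12 stayed called under every alternative, whereas Rps28 lost its call without the first CeA WT library (adjusted p = 0.0514). Rpsa lost its call under total count scaling (adjusted p = 0.139), under cyclic loess (0.298) and without any 1 of the 4 libraries compared (0.0562 to 0.268). Rpl7l1 lost it under total count scaling (0.111), cyclic loess (0.171) and without 3 of the libraries (0.0514 to 0.334), namely the second CeA SOM+ control and either CeA WT library. Rps27l lost it under cyclic loess (0.0539), without the first CeA SOM+ control library (0.0896) and without the first CeA WT library (0.124). Rps4l lost it without the first CeA SOM+ control library (0.114) and without the second CeA WT library (0.1).

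In cortex, SOM+ control nuclei against bulk WT nuclei gave larger differences in both directions. Of the 85 members 49 rose and 15 fell, where 31.5% of all promoters were called higher and 30.6% lower. The median log2 fold was 0.73 over the members and -0.07 over all promoters. The fold was past 2 for 34 of the members that rose and 9 of those that fell, and the share over all promoters was not counted. Under cyclic loess 45 rose and 24 fell, and without the first cortex SOM+ control library 49 rose and 8 fell. Of the P stalk 3 of 3 rose, of the large subunit 25 of 43 rose and 8 fell, of the small subunit 18 of 31 rose and 5 fell, and of the paralogs 3 of 8 rose and 2 fell. Members whose windows overlap only small RNA genes were called higher in 15 of 19 and lower in 2 of 19, those with no overlap in 23 and 10 of 48.

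Rpl23a, which sits at the exit of the tunnel for the new protein, had 119 and 141 CPM in cortex SOM+ control against 27.5 and 23.6 CPM in cortex WT. The gap was the widest upward one among the members, a log2 fold of 2.35 ± 0.22 (adjusted p = 3.95e-11). Rpl10a, of the L1 stalk, had 152 and 156 CPM in cortex SOM+ control and 42.1 and 32.9 CPM in cortex WT, a log2 fold of 2.03 ± 0.23 (adjusted p = 1.05e-09). Rps3, near the entry of the messenger RNA, had 110 and 128 CPM in cortex SOM+ control and 29.5 and 35 CPM in cortex WT, a log2 fold of 1.89 ± 0.21 (adjusted p = 7.74e-10). All 3 had groups without overlap, as had all 49 members that rose and all 15 that fell, so this adds nothing to the calls. Rpl13 had 92.4 and 96.4 CPM in cortex SOM+ control and 30.5 and 22.6 CPM in cortex WT, a log2 fold of 1.83 ± 0.21 (adjusted p = 1.81e-09). The paralog Rps27l had 112 and 124 CPM in cortex SOM+ control and 34.2 and 31.2 CPM in cortex WT, a log2 fold of 1.85 ± 0.20 (adjusted p = 3.76e-10). The P stalk rose as well. Rplp0 had 144 and 162 CPM in cortex SOM+ control and 53.3 and 50.6 CPM in cortex WT, a log2 fold of 1.55 ± 0.21 (adjusted p = 3.66e-08). Rplp2 and Rplp1 rose by 1.18 ± 0.19 and 0.86 ± 0.21 (adjusted p = 1.68e-06 and 0.000585, with adjusted p = 0.102 for Rplp1 under cyclic loess), Rpsa by 0.87 ± 0.19 (adjusted p = 0.000172), and the paralogs Rpl7l1 and Rps4l by 1.70 ± 0.21 and 1.09 ± 0.27 (adjusted p = 7.2e-09 and 0.000533).

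Most members that fell were among the most open in cortex bulk nuclei. Without paralogs, the 13 that fell had a median of 31.9 CPM per kb in cortex SOM+ control and 76 CPM per kb in cortex WT, and 12 of them were among the 20 highest members of cortex WT. The 46 that rose had medians of 44.8 CPM per kb in cortex SOM+ control and 17.1 CPM per kb in cortex WT. Since cortex WT is one side of the same comparison, this is a description. Rps12 had 61 and 49.5 CPM in cortex SOM+ control and 189 and 225 CPM in cortex WT, a log2 fold of -1.91 ± 0.22 (adjusted p = 1.57e-09). Rps20, a small subunit protein, had 44 and 30.2 CPM in cortex SOM+ control against 126 and 139 CPM in cortex WT, a log2 fold of -1.85 ± 0.22 (adjusted p = 3.21e-09). In neither did a SOM+ library reach a bulk one. Rpl24, the gene of the belly spot and tail mouse mutant, had 38 and 34.8 CPM in cortex SOM+ control and 90.7 and 98.7 CPM in cortex WT, a log2 fold of -1.38 ± 0.20 (adjusted p = 1.17e-07). Rpl15 had 70.1 and 57.3 CPM in cortex SOM+ control and 146 and 141 CPM in cortex WT, a log2 fold of -1.18 ± 0.19 (adjusted p = 1.62e-06). Rpl36a and Rpl37 fell by 1.32 and 1.28 on the log2 scale (adjusted p = 1.98e-06 and 3.08e-06). Rps6 fell by 0.69 (SE 0.21, adjusted p = 0.0045), a call that ended without the first cortex SOM+ control library (adjusted p = 0.0678). The low paralog Rpl10l fell by 1.40 (SE 0.52, adjusted p = 0.0185) and Rpl22l1 by 0.64 (SE 0.22, adjusted p = 0.0115), and both lost the call when single libraries were left out.

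**Figure D2:**
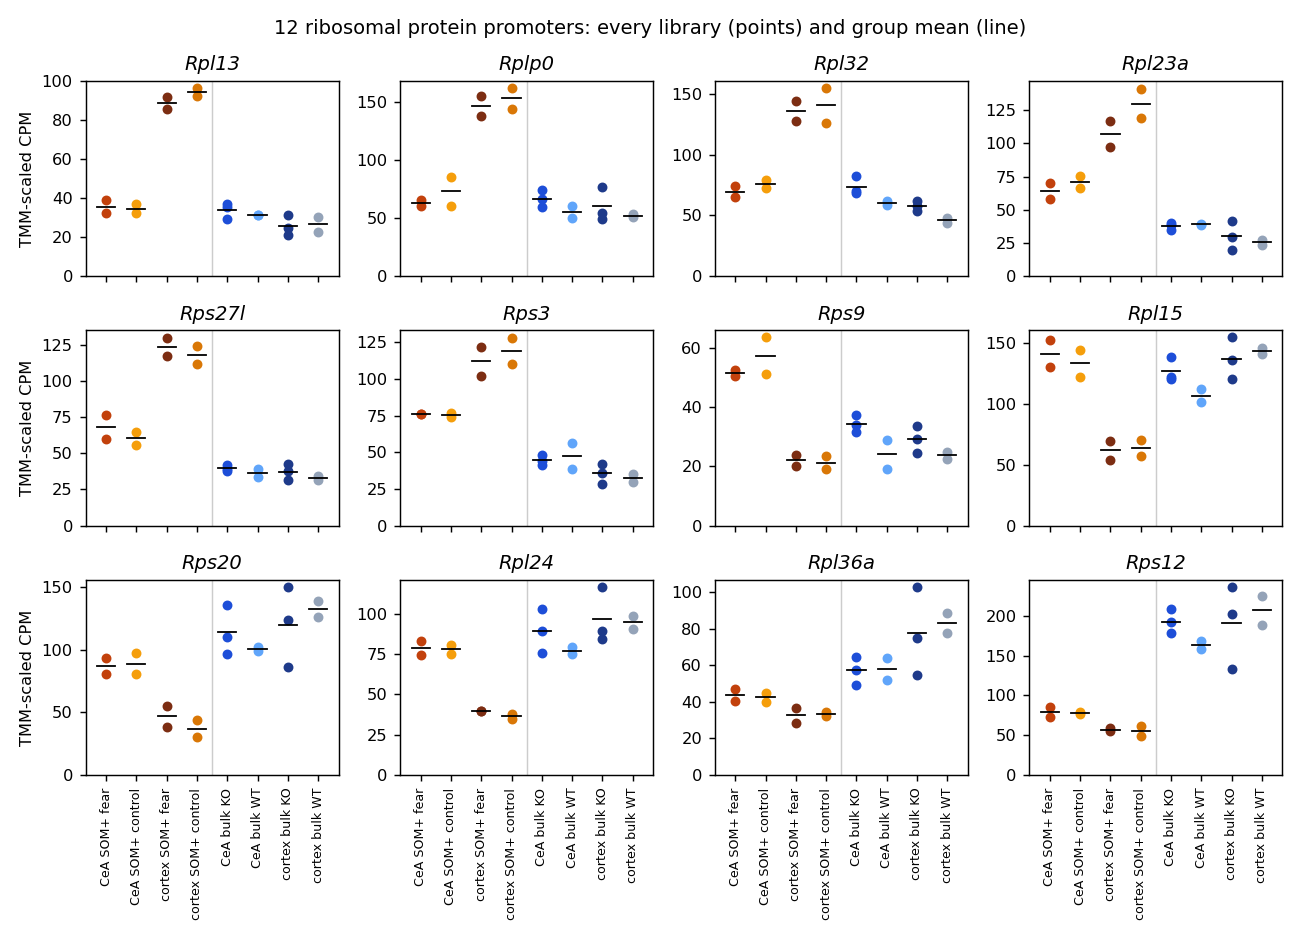
TMM-scaled CPM of 12 ribosomal protein promoters in every library (points), with groups along the horizontal axis, SOM+ groups left of the grey line and bulk groups right of it, and a line at each group mean. Rpl13 and Rplp0 stand high in cortex SOM+ nuclei alone, Rpl15, Rps20 and Rpl24 stand low there, Rps9 stands high in CeA SOM+ nuclei, and Rps12 is low in every SOM+ library.

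In both CeA and cortex SOM+ control nuclei 22 members rose, 25.9% of the members, where 11.7% of all promoters rose in both. Only 1 member fell in both, Rps12, where 7.91% of all promoters fell in both. These counts are from the TMM fits. In CeA 16 members rose under total count scaling and 13 under cyclic loess, so no more could rise in both there. Rpl22l1, called lower in cortex, was also called lower in CeA under total count scaling (-0.70, adjusted p = 0.00289), cyclic loess (-0.79, adjusted p = 0.00219), the replicate block (-0.54, adjusted p = 0.0408) and with control and WT libraries only (-0.55, adjusted p = 0.0142). In CeA 5 members rose that were not called in cortex, among them Rps9 and Rps27a, which is made as a fusion with ubiquitin. By call, 27 members rose in cortex only. The share over all promoters was not counted for either. The region difference itself is the CeA fold minus the cortex fold. It was called higher for 11 members and lower for 25, where 9.47% of all promoters were called higher and 15.2% lower. The member median was -0.31, against -0.02 over all promoters. Over the 48 members without overlapping windows the median was -0.06, with 6 higher and 10 lower. The largest region differences were those of Rpl19 (-1.79 ± 0.32, adjusted p = 0.000122), Rpl13 (-1.68 ± 0.30, adjusted p = 0.000124), Rps20 (1.66 ± 0.30, adjusted p = 0.000156) and Rpl15 (1.5 ± 0.27, adjusted p = 0.000134). The counts were 4 to 9 higher and 15 to 22 lower when 1 library was left out: 4 higher without the second CeA SOM+ control or the second cortex WT library, 5 without either cortex SOM+ control library or the first CeA WT library, 6 without the second CeA WT library, and 15 lower without the first CeA SOM+ control library.

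**Figure D3:**
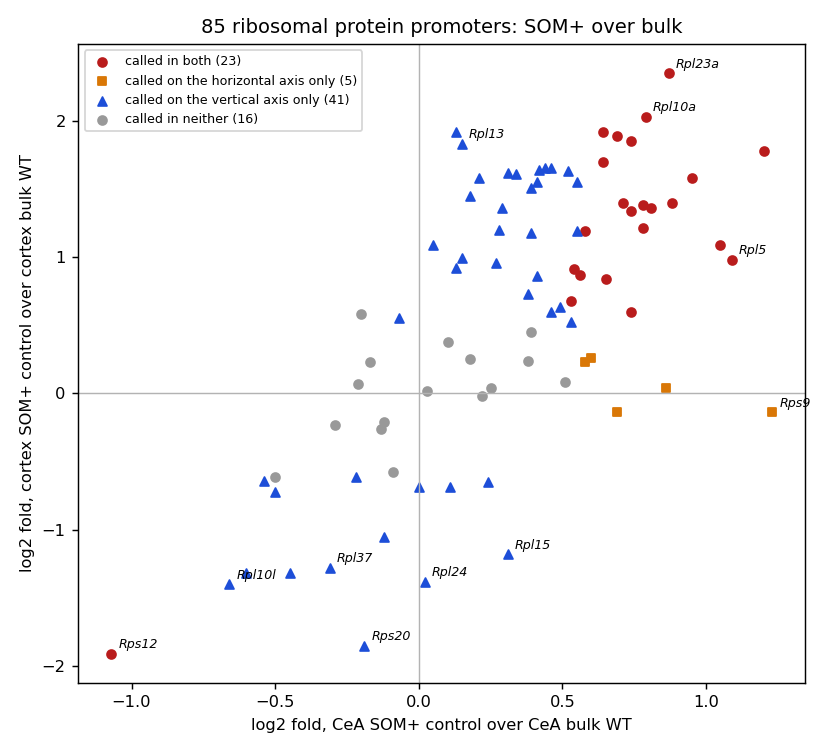
Each point is 1 of 85 members, with the log2 fold of SOM+ control over bulk WT in CeA on the horizontal axis and in cortex on the vertical axis, and colour and shape for the comparisons in which it was called. Most called members lie above 0 on both axes, Rps12 lies at -1.07 and -1.91, and Rps9 lies far right near 0 on the vertical axis.

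Cell type markers moved with these comparisons. Of 6 markers of somatostatin and GABAergic neurons 2 rose in CeA SOM+ control and 5 in cortex SOM+ control, and their summed level was 291 to 327 CPM in CeA SOM+ control against 207 to 233 CPM in CeA WT, and 397 to 418 CPM in cortex SOM+ control against 106 to 107 CPM in cortex WT. The summed level of 7 glutamatergic markers was 156 to 176 CPM in CeA SOM+ control against 172 to 203 CPM in CeA WT, with 3 markers lower, and 134 to 153 CPM in cortex SOM+ control against 325 to 424 CPM in cortex WT, with 6 lower. The 6 oligodendrocyte markers summed to 76 to 83.6 CPM in CeA SOM+ control and 143 to 163 CPM in CeA WT, with 3 lower, and to 50.4 to 66.2 CPM in cortex SOM+ control and 185 to 250 CPM in cortex WT, with 5 lower. The 5 astrocyte markers summed to 30.7 to 37.9 CPM in CeA SOM+ control and 77.9 to 81.6 CPM in CeA WT, with 4 lower, and to 24 to 30.9 CPM in cortex SOM+ control and 76.6 to 79.9 CPM in cortex WT, with 3 lower. The 5 microglial and 5 endothelial markers moved less, with 1 and 0 lower in CeA and 1 and 2 lower in cortex. No marker was at 0 in any library. Their part in the results on the members was not tested.

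CeA was next set against cortex within SOM+ nuclei, 4 libraries a side. Of the 85 members 16 were higher and 32 lower in CeA, where 21.1% of all promoters were called higher and 27.2% lower, and the median log2 fold was -0.20 against 0.04 over all promoters; with counts scaled to their totals the split was 24 higher and 25 lower with a median of 0.02, and under cyclic loess 25 higher and 22 lower with a median of 0.07. No direction of the members as a whole is therefore given. Scaling to the totals moved the median of all promoters to 0.26 here, and to -0.22, -0.31 and 0.13 in the other comparisons between CeA SOM+ and bulk, cortex SOM+ and bulk, and the regions in bulk. The called members named next kept their direction and their call in every alternative run, apart from Rpl10l. Of the 16 and 32 called, 13 and 28 had groups that did not overlap, and the share over all promoters was not counted. Most members named next were picked among these, so their separation follows from the choice. The members whose windows overlap only small RNA genes were higher in 3 and lower in 12 of 19.

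Rps9 had 52.5, 50.3, 51.1 and 63.6 CPM in CeA SOM+ libraries against 20.1, 23.8, 23.3 and 19.2 CPM in cortex SOM+ libraries. Every CeA library stood above every cortex one, and the log2 fold was 1.37 ± 0.15 (adjusted p = 7.44e-18). Rpl15 had 152, 130, 144 and 122 CPM in CeA SOM+ and 69.4, 54.1, 70.1 and 57.3 CPM in cortex SOM+, a log2 fold of 1.17 ± 0.15 (adjusted p = 5.31e-13). Rps20 had 93.4, 80.9, 97.4 and 80.8 CPM in CeA SOM+ and 55.1, 38.5, 44 and 30.2 CPM in cortex SOM+, a log2 fold of 1.13 ± 0.15 (adjusted p = 7.06e-13). The regions were apart in both. Rpl24, Rpl28 and the low paralog Rpl32l were also higher in CeA, by 1.09 ± 0.15, 0.69 ± 0.15 and 1.02 ± 0.24 (adjusted p = 2.76e-12, 2.14e-05 and 8.6e-05). Rps6 averaged 133 ± 24.2 CPM in CeA SOM+ and 99.4 ± 12.5 CPM in cortex SOM+ (SD, n = 4 each), with overlapping libraries and a log2 fold of 0.47 ± 0.15 (adjusted p = 0.00709).

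Rpl13 had 39.1, 32.2, 32.2 and 37.2 CPM in CeA SOM+ against 85.7, 92.1, 92.4 and 96.4 CPM in cortex SOM+, a log2 fold of -1.33 ± 0.15 (adjusted p = 9.37e-17). No CeA library came near a cortex one. Rplp0, the core of the P stalk, had 65.3, 60.2, 60.6 and 85.4 CPM in CeA SOM+ and 138, 155, 144 and 162 CPM in cortex SOM+, a log2 fold of -1.10 ± 0.16 (adjusted p = 3.86e-11). The cortex libraries of Rplp0 stood clear of its CeA ones. Rpl27a, Rpl32 and the paralog Rps27l were lower by 0.94, 0.88 and 0.85 on the log2 scale in CeA, with folds of -0.94 ± 0.16, -0.88 ± 0.15 and -0.85 ± 0.15 (adjusted p = 2.02e-08, 1.41e-07 and 2.09e-07). Rplp2 and Rpl7l1 had folds of -0.70 ± 0.15 and -0.83 ± 0.15 (adjusted p = 1.51e-05 and 2.62e-07). Rplp1, Rpsa, Rps4l, Rpl3l, Rpl39l and Rpl22l1 were not called, with adjusted p between 0.0593 and 0.588. Rpl3l was called lower in CeA with the replicate block (-0.49, adjusted p = 0.0455) and without the first CeA SOM+ fear library (-0.63, adjusted p = 0.0305), and Rps4l was called higher under cyclic loess (0.34, adjusted p = 0.043). For Rpl10l, with 4.35 ± 1.89 CPM in CeA SOM+ and 2.3 ± 0.64 CPM in cortex SOM+, the call (adjusted p = 0.0316) ended under 7 alternatives. Of the marker lists, that of somatostatin and GABAergic neurons had 1 marker higher and 2 lower in CeA and summed to 291 to 327 CPM in CeA SOM+ and 394 to 418 CPM in cortex SOM+, and the oligodendrocyte list had 2 higher and 0 lower. Their part in these differences was not tested.

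Within bulk nuclei, 5 libraries a side, the region differences of the members were smaller. Of the 85 members 15 were higher in CeA and 1, Rpl36a, was lower, where 6.85% of all promoters were called higher and 9.92% lower, with a median log2 fold of 0.16 against 0.03 over all promoters, and no called member was past a fold of 2. Rpl27 had 67.2, 64.9 and 58.5 CPM in CeA KO and 46.7 and 51.7 CPM in CeA WT, against 41.9, 40.1 and 33 CPM in cortex KO and 33.9 and 37.8 CPM in cortex WT. All CeA libraries lay above all cortex ones, with a log2 fold of 0.61 ± 0.13 (adjusted p = 0.00283). Of the 15 higher members 7 had groups without overlap, and those named as higher here were picked among them. Rps25, Rpl23, Rps10 and Rpl22, and the paralog Rpl32l, were higher by 0.54 ± 0.13, 0.60 ± 0.15, 0.53 ± 0.15, 0.44 ± 0.13 and 0.77 ± 0.22 (adjusted p = 0.00884, 0.012, 0.0218, 0.0261 and 0.0218), all with groups that did not overlap. Rpl36a averaged 57.5 ± 6.86 CPM in CeA bulk and 79.9 ± 17.8 CPM in cortex bulk (SD, n = 5 each), with overlapping libraries and a log2 fold of -0.46 ± 0.15 (adjusted p = 0.035).
These counts depend on single libraries. None of the members was called without the second CeA WT or the second cortex WT library, 2 were higher without the first cortex WT, 3 without the first CeA WT, 7 and 9 without the second and the third CeA KO, 8 without the second cortex KO and 24, with 4 lower, without the first cortex KO library. The glutamatergic list had 5 of 7 markers lower in CeA bulk, the somatostatin and GABAergic list 4 of 6 higher, and the oligodendrocyte list 2 of 6 lower, and their part was not tested.

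Set side by side, the regions differed in opposite directions for 12 members: Rpl3, Rpl19, Rpl22, Rpl27, Rps3, Rps10 and others were called lower in CeA among SOM+ nuclei and higher in CeA among bulk nuclei, which are separate libraries. These are 14.1% of the members, where 3.23% of all promoters were called in this way. Rpl19, at a bridge between the subunits, had log2 folds of -0.57 in SOM+ and 0.73 in bulk nuclei, and Rpl27 had -0.79 and 0.61. Rpl36a was called the other way round, higher in CeA SOM+ and lower in CeA bulk. Rpl32l was called higher in CeA in both, and 35 members were called in neither. The region difference of SOM+ control over bulk WT given above is the same difference in part of the same libraries, so it is no separate test of these members. The bulk side of this rests on the library-dependent calls just given. The SOM+ side depends on the scaling. There TMM gave 32 members lower in CeA and 16 higher, total counts 25 and 24, and cyclic loess 22 and 25. Among the 12, the SOM+ folds nearest to no change were -0.36 for Rps25 and -0.39 for Rpl22. The share of 14.1% is from the TMM fits, and how many of the 12 keep both calls under the other scalings was not counted.

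**Figure D4:**
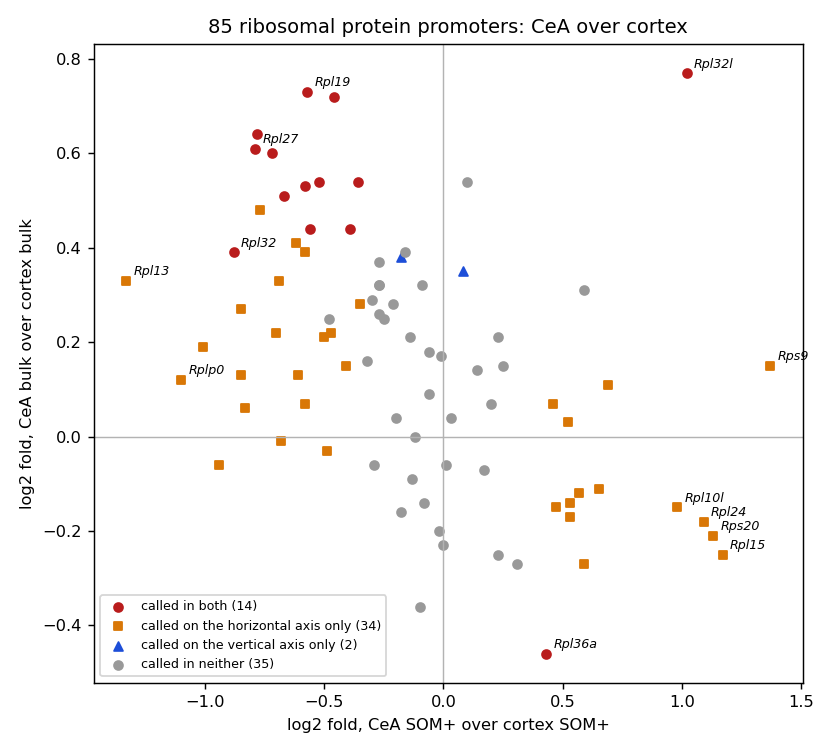
Each point is 1 of 85 members, with the log2 fold of CeA over cortex in SOM+ nuclei on the horizontal axis and in bulk nuclei on the vertical axis. The 12 members called in opposite directions fill the upper left, Rpl32l is the member called higher on both axes (1.02 and 0.77), and Rps9 and Rpl13 lie at 1.37 and -1.33 on the horizontal axis with small bulk folds. Under total count scaling and cyclic loess the median on the horizontal axis turns to 0.02 and 0.07.

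Fear conditioning was compared with control in SOM+ nuclei, the question for which these mice were trained. In edgeR no member was called, on average over the regions, in CeA, in cortex or in the difference between the regions, where 0% of all promoters were called in each. At an unadjusted p under 0.05 stood 0 members and 522 of all promoters on average over the regions, 0 and 580 in CeA, 0 and 278 in cortex and 0 and 364 in the difference. DESeq2 and limma with cyclic loess called 0 members and 0 promoters too. The 77 members without paralogs had log2 folds between -0.21 (Rpl3) and 0.20 (Rps6), with a median SE of 0.15. Rpl3, a large subunit protein near the peptidyl transferase centre, averaged 80.4 ± 29.5 CPM in fear and 92.8 ± 30.3 CPM in control libraries (SD, n = 4 each). Its libraries overlapped, and so did those of Rpl41 (66.2 ± 11.2 CPM in fear, 77.1 ± 16.4 CPM in control) and Rpl6 (36 ± 9.05 CPM in fear, 42.2 ± 8.3 CPM in control), the members of smallest p after it, with unadjusted p of 0.164, 0.168 and 0.172 and adjusted p of 1. Rps6 averaged 124 ± 30.3 CPM in fear and 109 ± 20.4 CPM in control libraries. By region, the 77 members ranged from -0.37 (Rps28) to 0.24 (Rps6) in CeA and from -0.35 (Rps25) to 0.35 (Rps20) in cortex, with median SE of 0.22 and 0.21. Changes of this size were not detectable with 2 libraries a group: Rps25 in cortex, at -0.35 ± 0.20, had an unadjusted p of 0.0792 and an adjusted p of 1.

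The Erbb4 KO was compared with WT in bulk nuclei. Erbb4 is a neuregulin receptor. Its own promoter window had 26 to 41.4 CPM in KO and 33.6 to 45.8 CPM in WT libraries (log2 fold -0.27 ± 0.19, adjusted p = 1); the KO is labelled as limited to SOM+ cells and the deleted part is not given in the sources used here, so this window does not check the labels. In edgeR no member was called, on average, in CeA, in cortex or in the difference between the regions, where 0% of all promoters were called in each. At an unadjusted p under 0.05 stood 5 members (5.88% of them) and 865 of all promoters (3.43%) on average, 5 and 747 in CeA, 1 and 816 in cortex, and 0 and 594 in the difference, and DESeq2 and limma with cyclic loess called none. The member median was 0.11, against 0.01 over all promoters. Rps9 had a lowest, median and highest value of 24.4, 32.6 and 37.4 CPM in the 6 KO libraries, and 28.9, 19.2, 24.9 and 22.4 CPM in the 4 WT libraries. The libraries overlapped, with a log2 fold of 0.61 ± 0.20, an unadjusted p of 0.00733 and an adjusted p of 1. Rpl3 and Rps27 followed with 0.46 ± 0.19 and 0.37 ± 0.16 (unadjusted p of 0.0276 and 0.0303, adjusted p of 1).
The third cortex KO library bears on this. Without it, 988 of 25181 promoters were called in cortex, 105 higher and 883 lower. Of the 85 members 3 were called, a share near that of all promoters: Rpl19 (0.83 ± 0.23, adjusted p = 0.0237), Rpl10a (0.67 ± 0.21, adjusted p = 0.046) and Rpl22l1 (-0.63 ± 0.20, adjusted p = 0.0471). On average over the regions 132 promoters and 0 members were then called. All KO libraries are male, so sex enters the fit as a term set by the WT libraries in bulk. The folds therefore can differ from the CPM printed beside them. Without the sex term no member was called either. At an unadjusted edgeR p under 0.05 then stood 9 members and 991 of all promoters on average. In CeA these were 8 and 1356, and in cortex 3 and 281.

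**Figure D5:**
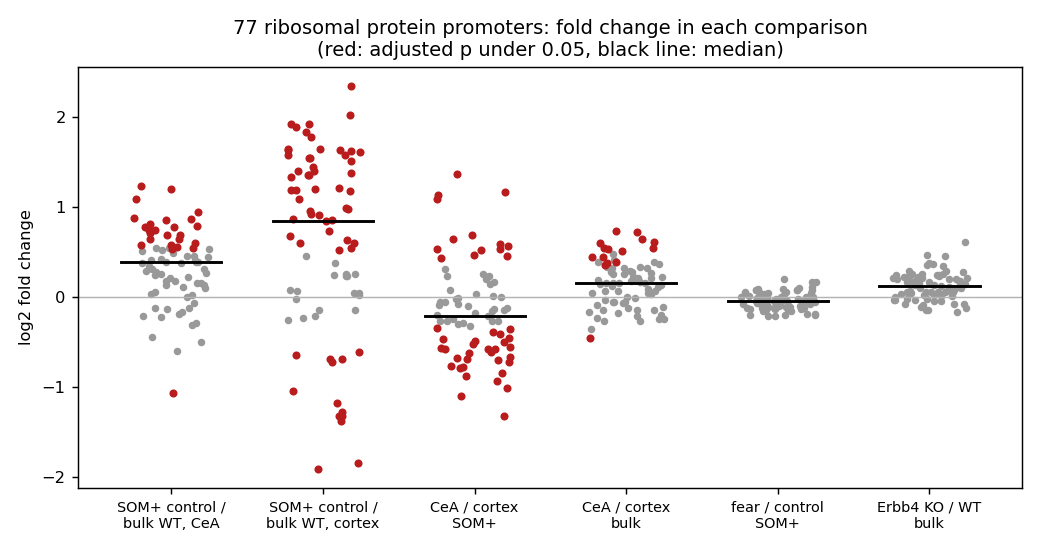
Log2 fold change of 77 ribosomal protein promoters (points) in each comparison along the horizontal axis, red where called at an adjusted p under 0.05, with a black line at the median. The medians are 0.39 and 0.84 for SOM+ control over bulk WT in CeA and cortex, -0.21 and 0.16 for CeA over cortex in SOM+ and bulk nuclei (the first turning to about 0 or above under 2 other scalings for all 85 members), -0.04 for fear over control and 0.12 for KO over WT.

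The rest of the translation machinery gives the surroundings. Of all promoters 13.7% were called higher and 9.56% lower in CeA SOM+ control over CeA WT. In cortex these shares were 31.5% and 30.6%. No list below was tested against these shares. Mitochondrial ribosomal proteins, which build the separate ribosome of the mitochondrion, rose for 19 of 77 and fell for 1 in CeA SOM+ control over CeA WT, and rose for 41 and fell for 16 in cortex, with medians of 0.32 and 0.59 beside 0.38 and 0.73 for the cytosolic members. Subunits of oxidative phosphorylation rose for 18 and 40 of 84 and fell for 3 and 17. In bulk CeA over cortex 3 mitochondrial ribosomal proteins were higher and 7 lower, with a median of -0.01, beside 15 and 1 of the cytosolic members. Of all promoters 6.85% were called higher and 9.92% lower in bulk CeA over cortex. Whether these lists differ from the members was not tested. Of 30 translation initiation factors 7 rose and 1 fell in CeA SOM+ over bulk and 17 rose and 5 fell in cortex, led in cortex by Eif6, which keeps the subunits apart (2.30 ± 0.22, adjusted p = 4.63e-11), and Eif3c (2.35 ± 0.23, adjusted p = 9.23e-11). Of 29 ribosome assembly and nucleolar genes 13 rose and 1 fell in CeA and 18 rose and 3 fell in cortex, with Tsr1 at 2.03 ± 0.22 (adjusted p = 3.34e-10) and Nolc1 at 1.75 ± 0.21 (adjusted p = 2.94e-09) in cortex. Of 14 genes of RNA polymerase I and its factors 5 and 9 rose and 0 and 2 fell.
Of 15 genes of mTOR signalling 5 rose and 2 fell in CeA and 11 rose and 3 fell in cortex. Among them Rptor, the mTORC1 scaffold, and Rps6kb1, the S6 kinase that acts on Rps6, rose by 2.24 ± 0.22 and 1.93 ± 0.20 in cortex (adjusted p = 4.89e-11 and 1.25e-10), and Eif4ebp1, the repressor of cap-dependent translation, fell by 2.82 (SE 0.31, adjusted p = 7.95e-10). In CeA over cortex SOM+ nuclei 0 of these 15 were higher and 8 lower, as scaled by TMM. Of the initiation factors 4 were higher and 16 lower there, and of all promoters 21.1% were higher and 27.2% lower. Of the 9 elongation factors 1 rose in CeA and 4 rose and 4 fell in cortex, with Eef1a2, the neuronal form, at 1.77 ± 0.21 (adjusted p = 4.44e-09) and Eef1a1, the general form, at -1.01 ± 0.21 (adjusted p = 8.87e-05). Fau, a ribosomal protein made as a fusion with a ubiquitin-like protein, rose in cortex by 1.5 ± 0.23 (adjusted p = 3.9e-07), and Gnb2l1 (RACK1), a scaffold on the small subunit, fell by 0.75 (SE 0.20, adjusted p = 0.00103).

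The calls were also counted by promoter feature. Of the 26 matched members with an ETS motif 15 rose and 5 fell in cortex SOM+ control over cortex WT, and of the 38 without it 23 rose and 7 fell. With a TOP tract within 5 bases of the start the counts were 17 and 6 of 30, and without it 21 and 6 of 34. The 6 members with the YY1 motif, Rpl13a, Rpl22, Rpl35a, Rpl7l1, Rps15a and Rps27, all rose, and 32 of the 58 without it rose and 12 fell. With the Sp1 motif 27 of 39 rose and 7 fell, and without it 11 of 25 rose and 5 fell. In CeA over cortex SOM+ nuclei 5 members with the Sp1 motif were higher and 17 lower, and 7 and 7 of those without it. Of the 5 members with the cAMP response element, 1 (Rps9) was higher and 3 lower in CeA over cortex SOM+ nuclei. Of all promoters 31.5% were called higher and 30.6% lower in cortex SOM+ control over cortex WT. In CeA over cortex SOM+ nuclei these shares were 21.1% and 27.2%. There the members' split was 16 higher and 32 lower under TMM, and 25 and 22 under cyclic loess. The counts by feature are from the TMM fits, and no test was made of them.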

How the data were processed

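The submitters' processing notes name the tools Bowtie2, MACS2, Picard 1.88, Trimmomatic 0.32 and bcl2fastq 2.16.0.10, and the build mm9. The authors deposited raw read counts per promoter window. Not given in the sources used here: the counting program, strand, duplicates, multi-mapped reads and any Tn5 offset, so processed pseudogenes may share reads with first exons. Repeated windows (663 of 26728 entries) were removed. Library sizes were the counts over all windows.

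Counts were fitted with edgeR 4.0.16 (quasi-likelihood, robust, TMM; R 4.3.3) and adjusted over all promoters by Benjamini-Hochberg, after a filter on low counts by group (minimum count 10, total 15). All 18 libraries with labelled sex gave SOM+ against bulk (25246 promoters), the 8 SOM+ libraries region and fear (25157), and the 10 bulk libraries with sex region and KO (25196). Alternatives were total count scaling, RLE size factors, limma 3.58.1 with cyclic loess, DESeq2 1.42.0 and no filter. Others were no sex term, a replicate block, control and WT libraries only, no overlapping windows, and each library left out.

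Members and lists were chosen with earlier results of these data known. Named members are, per comparison and direction, up to 6 of smallest p among those called without overlap between groups, the 3 of smallest p where fewer than 3 were called, and always the P stalk, Rpsa, Rps6, the paralogs and the extremes of level. Other translation genes are up to 4 per list by smallest p. Some genes that the rule names are not reported here.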

Additional observations from a re-analysis of the deposited data

Results flagged for a closer look

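In CeA SOM+ nuclei, Rps9 had 52.5 and 50.3 CPM in the fear libraries and 51.1 and 63.6 CPM in the control libraries, and the gap of the second control library to the nearest of the others was past Dixon's limit. Of 40 sets of libraries examined this was the only one past the limit, and chance passes about 1 in 20. Without that library Rps9 kept its calls.

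The difference between SOM+ control and bulk WT was itself tested between the regions. It was more positive in CeA than in cortex for 11 members and more negative for 25. The members with the smallest p were Rpl19 (-1.79), Rpl13 (-1.68), Rpl23a (-1.48), Rpl3 (-1.37), Rpl32 (-1.28) and Rpl27 (-1.28) on the negative side, and Rps20 (1.66), Rpl15 (1.5), Rpl24 (1.4), Rps9 (1.37), Rpl37 (0.97) and Rpl39 (0.89) on the positive side, all as log2 differences. The calls of Rpl37 and Rpl39 ended under 6 and 4 of the alternatives.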

How the results depend on the processing

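No result changed direction among those with a call. For SOM+ control over bulk WT in CeA, where 27 members rose and 1 fell, total count scaling gave 16 and 6, cyclic loess 13 and 8, the replicate block 30 and 3, control and WT libraries only 33 and 4, and the 48 members without overlapping windows 13 and 0. In cortex, where 49 rose and 15 fell, cyclic loess gave 45 and 24, and members without overlapping windows had 23 that rose. The region difference had 6 and 10 without overlapping windows, with a median of -0.06 against -0.31 for all 85. For CeA over cortex in SOM+ nuclei cyclic loess gave 25 higher and 22 lower, and members without overlapping windows 15 lower; in bulk nuclei these had 6 higher. Leaving out 1 library at a time gave 7 to 19 higher and 1 lower in CeA, 42 to 49 and 8 to 14 in cortex, 4 to 9 and 15 to 22 for the region difference, 14 to 20 and 25 to 37 between regions in SOM+ nuclei, 0 to 24 and 0 to 4 in bulk nuclei, 0 to 3 for KO in cortex, and 0 for the other fear and KO comparisons. The cause of these changes was not tested, and some of these runs also had fewer members or libraries. A value was also taken for each member examined, in 1 comparison under 1 alternative, so a member can appear many times. Of these values, 85 lost and 17 gained a call and 1440 did neither. The 85 are values and not the 85 members.

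Same-numbered SOM+ libraries share their labelled sex, and nothing in the labels ties numbers to shared mice or days. Same-numbered deviations correlated at -0.0257 to 0.192 in SOM+ and -0.366 to 0.406 in bulk libraries, so pairing was not taken as given, and in SOM+ libraries the replicate block is also a term for sex. With the number as a replicate block 0 members were called for fear or KO, as without it.

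With 2 or 3 libraries a group, small changes are not detectable, SOM+ and bulk differ in mouse line and gate, and the counts with overlapping windows cannot be split between genes.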
